A study of Rattus norvegicus with 9 samples.

Results

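The Wnt genes described here are 47 of the 14217 genes that the array carries under 1 symbol. They were chosen by a rule on symbols that uses no measured value, although earlier results of these data were known. The rule takes the Wnt ligands, the R-spondins, the Frizzled (Fzd) receptors with Lrp5 and Lrp6, and the secreted antagonists Sfrp, Frzb, Dkk and Wif1. It adds the Nkd antagonists, the transducers Dvl and Ctnnb1, the Apc, Axin and Gsk3 genes, and the transcription factors Lef1, Tcf7, Tcf7l1 and Tcf7l2. Each gene was read from its probe set of highest mean signal over 9 arrays, and 20 of the 47 had a choice of several probe sets.

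RNA was measured on Affymetrix rat expression arrays in 3 groups of 3 biological replicates, with 1 array per sample. The rESC-RPC2 and rESC-RPC1 groups are cells that were driven towards retinal progenitors from rat embryonic stem cells of 1 line, DA8-16 of the DA rat strain, and were collected on day 16. Both began as floating aggregates in a medium with Matrigel and IWR-1e, an inhibitor of Wnt signalling, and later had a serum medium for which no inhibitor is listed. The rESC-RPC2 aggregates floated until day 14 and then adhered, whereas those of rESC-RPC1 adhered from day 10 and were moved to N2 medium on day 14. P-RPC are neural retina cells of SD rats on postnatal day 1, dissociated with papain, and no sorting of them is described. Strain, tissue against culture and cell type differ together in each comparison with P-RPC, and the medium differs together with the time of adherence between rESC-RPC2 and rESC-RPC1, so these cannot be told apart. The labels do not say whether the replicates were separate animals or separate differentiations, so that p-values measure the spread between these samples, which may be technical in part.

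Wnt proteins are secreted ligands that bind a Frizzled receptor together with Lrp5 or Lrp6, and the receptor recruits Dishevelled (Dvl) and Axin. Without ligand, a complex of Axin, Apc and the kinase Gsk3 marks beta-catenin (Ctnnb1) for destruction, and with ligand beta-catenin enters the nucleus and acts with Lef1 and the Tcf factors on target genes such as Axin2. In the vertebrate head, low Wnt signalling favours forebrain and eye field over more caudal fates, and later the pathway is active at the margin of the retina. IWR-1e acts by stabilising Axin.

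The deposited values are MAS 5.0 signals on a linear scale, with a mean after trimming of 500.2 on each array and medians from 113 to 128. The detection threshold was set at a signal of 123, which is the median over all arrays, and a gene was tested where at least 3 of the 9 arrays reached it. This kept 9948 genes, among them 25 of the 47 Wnt genes. Of these 25, 15 were at or above the threshold on all 9 arrays, 3 (Fzd6, Lef1 and Wnt5b) lay under it on every rESC-RPC2 array, 4 (Fzd8, Nkd2, Wif1 and Wnt7a) lay under it on every P-RPC array, and Lrp6, Nkd1 and Tcf7 lay under it on some arrays. The call rule was a limma p under 0.05 after Benjamini-Hochberg adjustment over all genes, together with a fold of at least 2, which is 1 on the log2 scale. If no array of a group reached the threshold, only a lower bound of the fold is given, computed with that group at the threshold.

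The cell types were checked against marker genes. Of 11 markers of retinal progenitors, 8 averaged at or above the threshold in rESC-RPC2, 9 in rESC-RPC1 and 10 in P-RPC, and their summed signal was 16996 to 17948 in rESC-RPC2, 22879 to 30994 in rESC-RPC1 and 70947 to 73877 in P-RPC. Pax6, which defines the eye field and its progenitors, averaged 84.7 ± 24.0 in rESC-RPC2, 118 ± 74.3 in rESC-RPC1 and 13972 ± 423 in P-RPC (SD, n = 3 each), so that the rESC-RPC2 mean and the rESC-RPC1 mean lay under the threshold. Not all progenitor markers followed Pax6: of the 10 tested, 8 were called lower and 0 higher in rESC-RPC2 against P-RPC, and 6 lower and 1 higher (Nes, a filament protein of neural progenitors) in rESC-RPC1 against P-RPC. Sox2, a factor of neural progenitors in general, averaged 6468 ± 181 in rESC-RPC2, 9368 ± 1383 in rESC-RPC1 and 4936 ± 32.7 in P-RPC (SD, n = 3 each), higher in both rESC-RPC groups but under the fold threshold. Of 17 mesenchymal and smooth muscle markers, 9 were detected in rESC-RPC2, 12 in rESC-RPC1 and 5 in P-RPC, with sums of 12972 to 23296 in rESC-RPC2, 19956 to 50884 in rESC-RPC1 and 1404 to 1478 in P-RPC. Of 12 neuron markers, 12 were detected in rESC-RPC2, 11 in rESC-RPC1 and 11 in P-RPC, with sums of 54451 to 60486 in rESC-RPC2, 21860 to 31322 in rESC-RPC1 and 27384 to 32820 in P-RPC. Of 11 markers of the retinal pigment epithelium, 1 was detected in rESC-RPC2, 3 in rESC-RPC1 and 8 in P-RPC, with sums of 414 to 533 in rESC-RPC2, 2012 to 6384 in rESC-RPC1 and 12053 to 14109 in P-RPC. Their calls did not all follow the sums, since Dct and Mitf were called higher in rESC-RPC1 than P-RPC. P-RPC replicate 1 held lens RNA, with a sum over 17 lens genes of 156800 against 2663 and 7139 on the other P-RPC arrays. Without that array the counts of Wnt genes called stayed at 9, 14 and 13. On P-RPC replicates 2 and 3, 4 and 5 of the lens genes reached the threshold, beside 1 on every rESC-RPC array. Of 12 microglia and macrophage markers, 7 were detected in P-RPC and 0 in rESC-RPC2 or rESC-RPC1. Of 10 endothelial markers, 2 were detected in P-RPC and 1 in each rESC-RPC group. In such mixtures a lower signal can come from fewer cells of a type or from less RNA per cell, which cannot be told apart.

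The calls lay mostly among genes that act outside the cell or on its surface. Of the 30 ligands, receptors and secreted antagonists on the array, 13 were tested. Of these, 8 were called in rESC-RPC1 against P-RPC, 10 in rESC-RPC2 against P-RPC and 9 in rESC-RPC2 against rESC-RPC1. Among the 13 were Fzd6 and Wnt5b, under the threshold on every rESC-RPC2 array, and Fzd8, Wif1 and Wnt7a, under it on every P-RPC array. Such genes pass the filter through the groups where they are higher, which favours a call. No share over all genes of these kinds was taken, so the counts describe the 13 genes only. In rESC-RPC1 against P-RPC, 9 of the 25 Wnt genes were called, where 21.5% of all genes tested were. Of these, 7 were higher in rESC-RPC1 (Fzd1, Fzd2, Fzd8, Nkd2, Sfrp1, Wif1 and Wnt7a; 12.0% of all genes) and 2 were lower (Dkk3 and Sfrp2; 9.56% of all genes). In rESC-RPC2 against P-RPC, 14 of 25 were called, where 23.8% of all genes were, with 6 higher (Fzd1, Fzd2, Fzd8, Nkd2, Wif1 and Wnt7a; 10.8% of all genes) and 8 lower (Dkk3, Frzb, Fzd6, Nkd1, Sfrp2, Tcf7, Tcf7l2 and Wnt5b; 13.0% of all genes). In rESC-RPC2 against rESC-RPC1, 13 of 25 were called, where 14.3% of all genes were. Only Wif1 and Wnt7a were called higher in rESC-RPC2 (2 genes, 5.09% of all genes), and 11 were lower (Dkk3, Frzb, Fzd2, Fzd6, Fzd8, Lef1, Nkd1, Nkd2, Sfrp2, Tcf7l2 and Wnt5b; 9.25% of all genes).

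The share of Wnt genes called was 36% in rESC-RPC1 against P-RPC, 56% in rESC-RPC2 against P-RPC and 52% in rESC-RPC2 against rESC-RPC1. In rESC-RPC1 against P-RPC, the share called lower was 8%, close to that of all genes. The median log2 change of the 25 genes was 0.16 in rESC-RPC1 against P-RPC, -0.09 in rESC-RPC2 against P-RPC and -0.72 in rESC-RPC2 against rESC-RPC1, beside -0.01, -0.02 and -0.03 over all genes. A gene seen in 1 group alone passes the filter through that group, so these shares describe the 25 genes and not the whole family. Of the 15 genes at or above the threshold on all 9 arrays, 5, 6 and 5 were called in the same 3 comparisons. The share over all genes that meet this condition was not computed, so these counts cannot be set against the shares above.

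**Figure D1:**
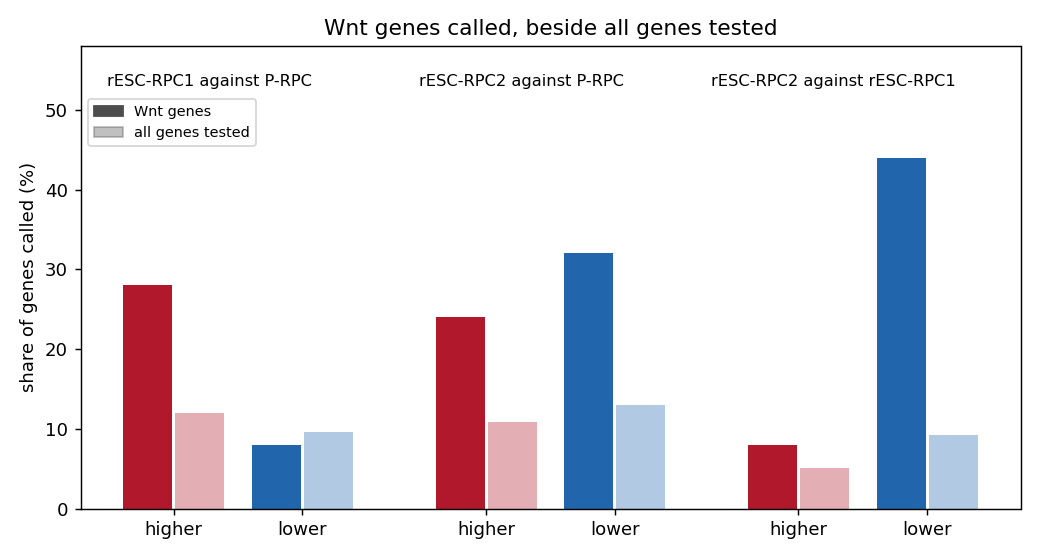
Share of genes called (%), on the vertical axis, in each comparison and direction, with Wnt genes (25 tested) in full colour and all 9948 genes tested in pale colour beside them. Between rESC-RPC2 and rESC-RPC1, 44% of the Wnt genes were called lower in rESC-RPC2, beside 9.25% of all genes.

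Several of the genes are themselves known targets of the pathway. Promoter sequence is shown for 3 of these, all of which hold the core described below. Lef1, also counted among such targets here, had a promoter window without the core and is not shown. Axin2 and Nkd1 are induced by Wnt signalling as negative feedback, and Tcf7 encodes a nuclear partner of beta-catenin. The sequences are RefSeq promoter windows of the rat GRCr8 build, from 250 bases before the annotated start of the gene to 30 bases after it, on the strand of the gene. Capitals mark the core to which Tcf and Lef factors bind, CTTTGA, which was searched on both strands.
Axin2: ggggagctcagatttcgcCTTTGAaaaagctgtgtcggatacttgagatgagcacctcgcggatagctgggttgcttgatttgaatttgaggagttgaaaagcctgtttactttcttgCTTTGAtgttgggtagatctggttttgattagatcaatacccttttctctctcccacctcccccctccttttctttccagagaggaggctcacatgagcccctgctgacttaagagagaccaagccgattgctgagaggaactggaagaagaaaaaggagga
Nkd1: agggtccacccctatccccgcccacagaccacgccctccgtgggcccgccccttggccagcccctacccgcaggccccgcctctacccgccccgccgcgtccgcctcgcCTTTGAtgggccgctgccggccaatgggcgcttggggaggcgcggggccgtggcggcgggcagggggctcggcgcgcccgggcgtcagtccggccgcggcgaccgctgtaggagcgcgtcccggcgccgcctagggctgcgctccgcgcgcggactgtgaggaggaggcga
Tcf7: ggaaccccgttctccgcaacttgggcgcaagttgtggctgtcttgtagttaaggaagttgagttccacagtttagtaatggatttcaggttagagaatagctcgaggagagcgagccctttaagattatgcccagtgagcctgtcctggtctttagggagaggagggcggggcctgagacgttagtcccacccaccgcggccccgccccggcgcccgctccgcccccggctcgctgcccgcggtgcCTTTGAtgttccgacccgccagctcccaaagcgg
The windows lie at chr10:94398535-94398814 on the + strand for Axin2, chr19:34722817-34723096 on the - strand for Nkd1 and chr10:36954250-36954529 on the - strand for Tcf7. The core begins 232 and 132 bases before the start of Axin2, 141 bases before that of Nkd1 and 4 bases before that of Tcf7. Promoters of 300 bases were available for 36 of the 47 genes, and the core was present in 4 of them (11.1%), the fourth being Gsk3a, beside 16.1% of all 33469 promoters. A match of this kind is a description of the letters and not a binding site.

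Of the 13 ligand genes, only Wnt7a and Wnt5b passed the filter. Wnt7a (gene ID 114850), a ligand of the developing nervous system, had signals of 848, 836 and 834 in rESC-RPC2, 292, 362 and 270.5 in rESC-RPC1 and 67.1, 29.4 and 33.9 in P-RPC. The 3 groups did not overlap, with rESC-RPC2 highest and every P-RPC array under the threshold. Wnt7a was higher by at least 6.83-fold in rESC-RPC2 than P-RPC (adjusted p = 4.36e-07) and higher by at least 2.49-fold in rESC-RPC1 than P-RPC (adjusted p = 8.07e-06). Relative to rESC-RPC1, its log2 change in rESC-RPC2 was 1.46 ± 0.27 (SE, adjusted p = 0.00137).

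Wnt5b (gene ID 282582), a ligand known mostly for signalling that does not pass through beta-catenin, went the other way. Its signals were 44.8, 44.9 and 4.57 in rESC-RPC2, 83.2, 232 and 75.4 in rESC-RPC1 and 265, 226 and 174 in P-RPC. All rESC-RPC2 arrays lay under the threshold and all P-RPC arrays above it, while of the rESC-RPC1 arrays only replicate 2 was above it. Wnt5b was lower by at least 1.78-fold in rESC-RPC2 than P-RPC (adjusted p = 0.00368), and rESC-RPC1 against P-RPC was not called (adjusted p = 0.327). With values under the threshold raised to it, the log2 change was -0.83 against P-RPC and -0.30 against rESC-RPC1, and both calls were lost. The call against rESC-RPC1 was also lost without rESC-RPC1 replicate 2 (adjusted p = 0.0776).

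The other 11 ligand genes were not detected on enough arrays to be tested: Wnt1, Wnt2, Wnt2b, Wnt4, Wnt5a, Wnt6, Wnt8b, Wnt9a, Wnt10a, Wnt11 and Wnt16. Their group means all lay under the threshold. Of the R-spondins, secreted proteins that strengthen the Wnt response, Rspo1 and Rspo3 were on the array and both lay under the threshold on all 9 arrays. No statement on their presence is possible at this sensitivity.

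Of the 9 receptor genes, 6 were tested, and Fzd1, Fzd2 and Fzd8 were called higher in both rESC-RPC2 and rESC-RPC1 than P-RPC. Fzd1 (gene ID 58868), a Frizzled receptor, had signals of 3352, 2398 and 2309.7 in rESC-RPC2, 3772, 2961 and 4699 in rESC-RPC1 and 396, 391 and 271 in P-RPC. The rESC-RPC2 and rESC-RPC1 arrays overlapped and all lay above the P-RPC arrays. The log2 change against P-RPC was 2.93 ± 0.21 (SE, adjusted p = 1.05e-06) in rESC-RPC2 and 3.43 ± 0.21 (SE, adjusted p = 4.25e-07) in rESC-RPC1. Between rESC-RPC2 and rESC-RPC1 it was -0.50, with a 95% interval of -0.96 to -0.04, and was not called.

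Fzd2 (gene ID 64512), another Frizzled receptor, had signals of 801, 536 and 510.3 in rESC-RPC2, 1335, 894 and 1494 in rESC-RPC1 and 276, 303 and 252 in P-RPC. No groups overlapped, and rESC-RPC1 was highest. Relative to P-RPC, the log2 change was 1.13 ± 0.21 (SE, adjusted p = 0.000962) in rESC-RPC2 and 2.13 ± 0.21 (SE, adjusted p = 1.33e-05) in rESC-RPC1. Between rESC-RPC2 and rESC-RPC1 it was -1.01 ± 0.21 (SE, adjusted p = 0.00293), at the edge of the fold threshold, and it fell under 1 in size under other scalings (-0.98 with quantile normalization and -0.95 with median centring). It also fell under 1 without rESC-RPC1 replicate 1 or 3 or rESC-RPC2 replicate 2 or 3 (-0.94, -0.86, -0.92 and -0.89), and the call against P-RPC was lost without rESC-RPC2 replicate 1 (0.92).

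Fzd8 (gene ID 364754), a Frizzled receptor of the anterior neural plate in the mouse embryo, had signals of 386, 405 and 345 in rESC-RPC2, 1040.4, 809 and 700.1 in rESC-RPC1 and 111, 111 and 120.3 in P-RPC. All P-RPC arrays lay just under the threshold, and rESC-RPC1 exceeded rESC-RPC2 on every array. Fzd8 was higher by at least 3.07-fold in rESC-RPC2 (adjusted p = 5.05e-06) and higher by at least 6.82-fold in rESC-RPC1 (adjusted p = 1.67e-07) than P-RPC. The log2 change between rESC-RPC2 and rESC-RPC1 was -1.15 ± 0.15 (SE, adjusted p = 0.000167). Without rESC-RPC1 replicate 1 it was -0.99, under the fold threshold.

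The mesenchymal marker sum moved with these receptors in part. It was 23296, 12972 and 16845 in rESC-RPC2, 32555, 19956 and 50884 in rESC-RPC1 and 1404, 1478 and 1458 in P-RPC, replicates 1 to 3 in turn. The genes of this sum did not all share its order. Of the 11 tested, 6 were called lower and 0 higher in rESC-RPC2 against rESC-RPC1. Col1a2 averaged 3130 in rESC-RPC2 and 14284 in rESC-RPC1, whereas Tagln averaged 6914 and 3993. Tagln, Acta2, Cnn1 and Myl9 had higher means in rESC-RPC2 than in rESC-RPC1 and were not called between them. The highest Fzd1 and Fzd2 signals within each of the rESC-RPC groups came from the array with the highest sum (rESC-RPC2 replicate 1 and rESC-RPC1 replicate 3), whereas Fzd8 was lowest on rESC-RPC1 replicate 3. The part of this cell type in the result was not tested.

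Fzd6 (gene ID 282581), a receptor known for planar cell polarity, had signals of 94.8, 91.8 and 73.1 in rESC-RPC2, 287, 174 and 356 in rESC-RPC1 and 188, 173 and 221 in P-RPC. The rESC-RPC1 and P-RPC arrays overlapped, and all rESC-RPC2 arrays lay under the threshold. Fzd6 was lower by at least 1.57-fold in rESC-RPC2 than P-RPC (adjusted p = 0.00249) and lower by at least 2.12-fold than in rESC-RPC1 (adjusted p = 0.000548). With values under the threshold raised to it, the log2 change against P-RPC was -0.65 and not called. Fzd3, a polarity and axon guidance receptor, averaged 350.0 ± 39.5 in rESC-RPC2, 293 ± 40.5 in rESC-RPC1 and 221 ± 16.5 in P-RPC (SD, n = 3 each), and its log2 change against P-RPC of 0.66 in rESC-RPC2 stayed under the fold threshold (adjusted p = 0.00258). The co-receptor Lrp6 averaged 142 ± 18.2 in rESC-RPC2, 152 ± 21.9 in rESC-RPC1 and 137 ± 29.9 in P-RPC (SD, n = 3 each), close to the threshold in every group, and was not called (adjusted p from 0.534 to 0.778). Fzd4, Fzd5 and Lrp5 did not pass the filter.

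**Figure D2:**
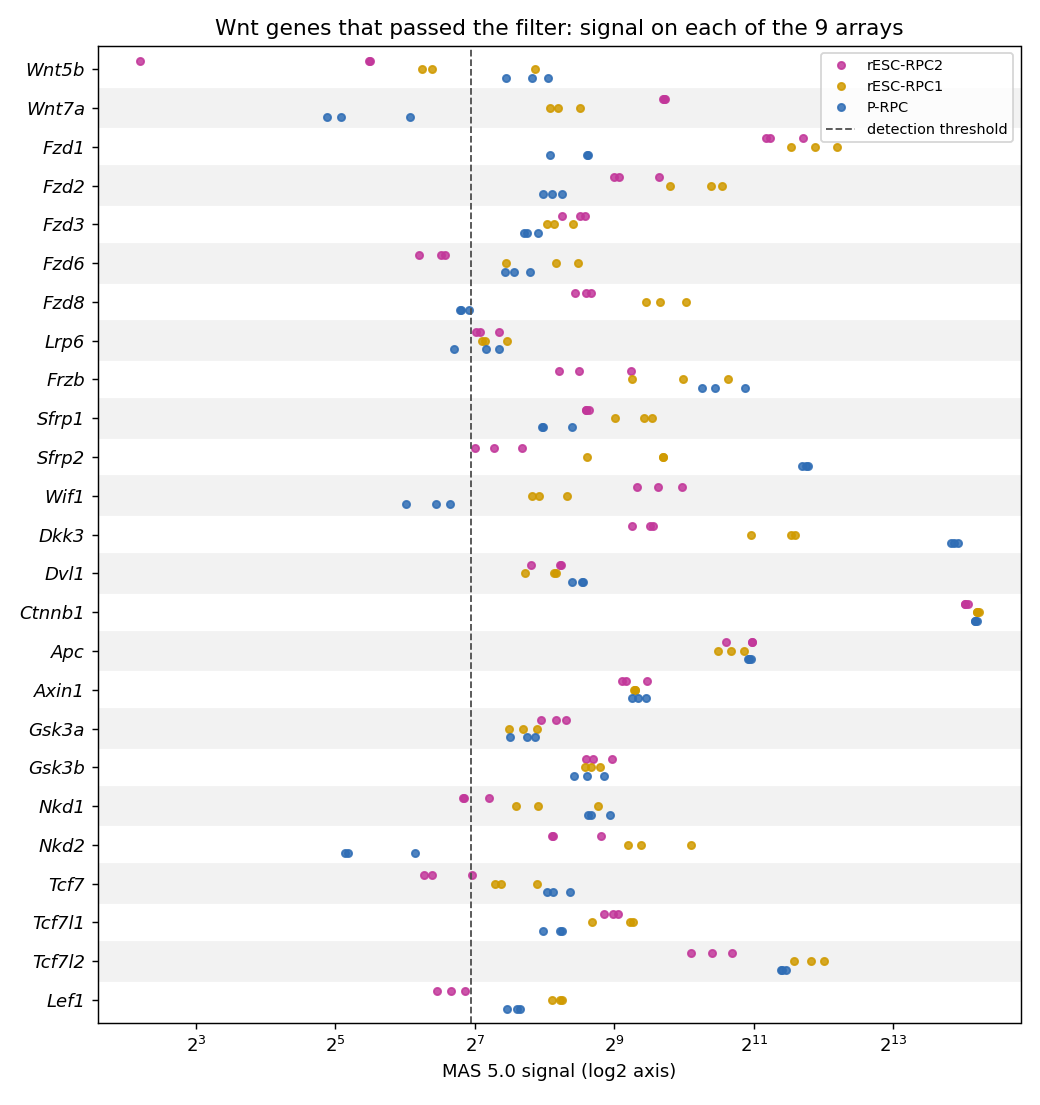
MAS 5.0 signal (horizontal log2 axis) of the 25 Wnt genes tested on each of the 9 arrays, 1 point per array, with rESC-RPC2 above rESC-RPC1 above P-RPC within each row and the detection threshold of 123 dashed. Genes follow their roles from ligands at the top to transcription factors at the bottom, and the groups of Axin1, Gsk3b and Lrp6 overlap while those of Dkk3, Sfrp2, Wif1 and Wnt7a stand apart. Levels of different genes come from different probe sets and are not comparable.

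Of the 8 secreted antagonists, 5 were tested, and the changes in P-RPC comparisons ran in both directions. Dkk3 (gene ID 171548), a divergent member of the Dickkopf family whose action on Wnt signalling is not settled, had signals of 611, 750.5 and 732 in rESC-RPC2, 2963, 3089 and 1983 in rESC-RPC1 and 14985, 14489.8 and 15554 in P-RPC. The groups were far apart, with P-RPC highest and rESC-RPC2 lowest. Relative to P-RPC, the log2 change was -4.43 ± 0.15 (SE, adjusted p = 1.33e-08) in rESC-RPC2 and -2.51 ± 0.15 (SE, adjusted p = 4.45e-07) in rESC-RPC1, and it was -1.92 ± 0.15 (SE, adjusted p = 7.45e-06) between rESC-RPC2 and rESC-RPC1. These calls held with each array left out.

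Sfrp2 (gene ID 310552), a secreted Frizzled-related protein that binds Wnt ligands and is also used as a marker of retinal progenitors, followed the same order. Its signals were 154, 204 and 128 in rESC-RPC2, 834, 829.6 and 389.8 in rESC-RPC1 and 3314, 3501 and 3446 in P-RPC. No groups overlapped, and rESC-RPC1 replicate 3 was the lowest of its group. Relative to P-RPC, the log2 change was -4.43 ± 0.27 (SE, adjusted p = 4.07e-07) in rESC-RPC2 and -2.40 ± 0.27 (SE, adjusted p = 3.04e-05) in rESC-RPC1. Relative to rESC-RPC1, the rESC-RPC2 value was -2.02 ± 0.27 (SE, adjusted p = 0.000176). Of the rESC-RPC1 arrays, replicate 3 was also the lowest for Dkk3 and for the retinal progenitor sum (22879, against 29038 and 30994). It was the lowest for the pigment epithelium sum too (2012, against 4692 and 6384). The order of that sum over the groups was that of Dkk3 and Sfrp2, but its genes did not all share it. Of the 7 tested, 5 were called lower and 2 higher (Dct and Mitf) in rESC-RPC1 against P-RPC. Dct alone had signals of 3389, 4630 and 1033 on the rESC-RPC1 arrays. The part of cell composition in these results was not tested.

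Frzb (gene ID 295691), a further secreted Frizzled-related protein, had signals of 361, 601 and 296 in rESC-RPC2, 1584, 1016 and 610.1 in rESC-RPC1 and 1878, 1391 and 1219.8 in P-RPC. The rESC-RPC1 arrays spread widely and overlapped with P-RPC, while rESC-RPC2 lay under both, its highest array just under the lowest of rESC-RPC1. In rESC-RPC2 the log2 change was -1.88 ± 0.34 (SE, adjusted p = 0.000748) against P-RPC and -1.31 ± 0.34 (SE, adjusted p = 0.00928) against rESC-RPC1. The call against rESC-RPC1 was lost without rESC-RPC1 replicate 1 (-0.97).

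Wif1 (gene ID 114557), a secreted inhibitor that binds Wnt ligands, was higher in the rESC-RPCs. Its signals were 639, 1004 and 789.7 in rESC-RPC2, 321, 225 and 243 in rESC-RPC1 and 87.3, 100.1 and 64.5 in P-RPC. All P-RPC arrays lay under the threshold, and all rESC-RPC2 arrays lay above all rESC-RPC1 arrays. Wif1 was higher by at least 6.49-fold in rESC-RPC2 (adjusted p = 7.96e-07) and higher by at least 2.11-fold in rESC-RPC1 (adjusted p = 0.000105) than P-RPC. Between rESC-RPC2 and rESC-RPC1 the log2 change was 1.62 ± 0.22 (SE, adjusted p = 0.000206). Wif1 and Wnt7a had the order rESC-RPC2, rESC-RPC1, P-RPC from high to low with no overlap, the reverse of Dkk3 and Sfrp2. The neuron markers were also higher in rESC-RPC2 than in rESC-RPC1, with 8 of 12 called higher, 0 lower and a median log2 change of 1.31, whereas their sums overlapped between rESC-RPC1 and P-RPC. The part of neurons in the results for Wif1 and Wnt7a was not tested.

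Sfrp1 (gene ID 84402), another Wnt-binding antagonist, averaged 390.2 ± 6.33 in rESC-RPC2, 649 ± 118 in rESC-RPC1 and 279 ± 50.05 in P-RPC (SD, n = 3 each). It was called higher in rESC-RPC1 than P-RPC, with a log2 change of 1.21 ± 0.16 (SE, adjusted p = 0.000107), and its log2 change in rESC-RPC2 of 0.50 ± 0.16 (SE, adjusted p = 0.021) stayed under the fold threshold. Dkk2, Sfrp4 and Sfrp5 did not pass the filter.

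**Figure D3:**
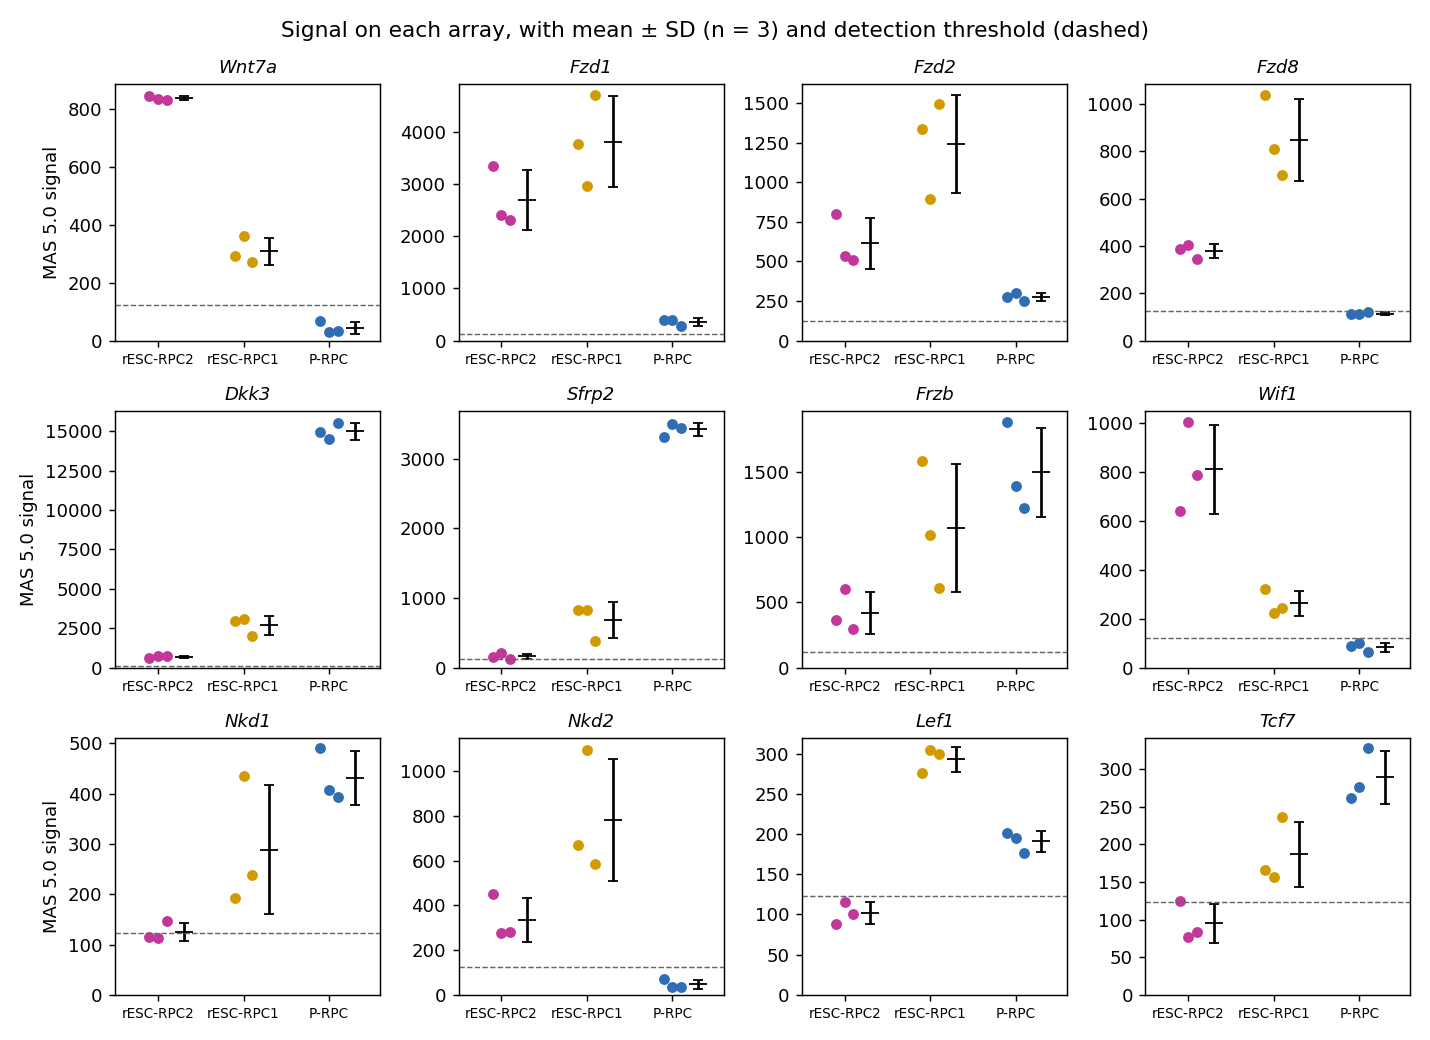
MAS 5.0 signal (vertical linear axis from 0) of 12 Wnt genes on each array, in rESC-RPC2, rESC-RPC1 and P-RPC from left to right, with the mean and SD over 3 arrays beside the points and the detection threshold of 123 dashed. Wnt7a and Wif1 are highest in rESC-RPC2 and lowest in P-RPC, Dkk3 and Sfrp2 are lowest in rESC-RPC2 and highest in P-RPC, and Fzd2, Fzd8, Nkd2 and Lef1 peak in rESC-RPC1.

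The transducers and the destruction complex differed little. Ctnnb1 (gene ID 84353), which encodes beta-catenin, had signals of 17129, 16771 and 16632 in rESC-RPC2, 18738, 18762 and 19115 in rESC-RPC1 and 18466, 18468 and 18872 in P-RPC. The rESC-RPC2 arrays lay under all others, but the log2 change was only -0.14 ± 0.04 (SE, adjusted p = 0.0106) against P-RPC and -0.16 ± 0.04 (SE, adjusted p = 0.00732) against rESC-RPC1. It was 0.02 in rESC-RPC1 against P-RPC, with a 95% interval of -0.07 to 0.11. The next brightest Ctnnb1 probe set gave -0.01 in rESC-RPC2 against P-RPC (limma adjusted p = 0.846) and -0.13 against rESC-RPC1 (adjusted p = 0.0856). A dimmer one that passed the filter gave -0.22 (adjusted p = 0.0923) and -0.30 (adjusted p = 0.0406). Beta-catenin is controlled mainly through its stability, which these arrays do not measure.

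Apc (gene ID 24205), the scaffold of the destruction complex, had signals of 1556, 2010.3 and 2016 in rESC-RPC2, 1633, 1850.1 and 1430.4 in rESC-RPC1 and 1939, 1944 and 1999.5 in P-RPC. Its log2 change was -0.09 in rESC-RPC2 (95% interval -0.36 to 0.18) and -0.27 in rESC-RPC1 (95% interval -0.54 to 0.00) against P-RPC. Axin1, the limiting scaffold of the complex, averaged 612 ± 84.4 in rESC-RPC2, 627 ± 2.44 in rESC-RPC1 and 653 ± 44.8 in P-RPC (SD, n = 3 each), and its log2 changes of -0.10, -0.06 and -0.04 in rESC-RPC2 and rESC-RPC1 against P-RPC and in rESC-RPC2 against rESC-RPC1 were all within their error. These genes overlapped between groups or differed by less than the fold threshold.

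Gsk3b (gene ID 84027), a kinase that phosphorylates beta-catenin, had signals of 502, 386 and 414 in rESC-RPC2, 380.3, 408 and 444 in rESC-RPC1 and 462, 342 and 390.4 in P-RPC. All 3 groups overlapped, with a 95% interval of -0.20 to 0.45 for the log2 change in rESC-RPC2 and -0.27 to 0.38 in rESC-RPC1 against P-RPC. Its relative Gsk3a (gene ID 50686) had signals of 247, 317 and 286 in rESC-RPC2, 237, 206 and 180.1 in rESC-RPC1 and 232, 216 and 181 in P-RPC. The rESC-RPC2 arrays of Gsk3a lay above all others, with a log2 change of 0.43 ± 0.17 (SE, adjusted p = 0.0404) against P-RPC and 0.45 ± 0.17 (SE, adjusted p = 0.0454) against rESC-RPC1, under the fold threshold. By limma, 0 of the 4 tested genes of the destruction complex were called in each comparison, too few genes to set against the 14.3% to 23.8% of all genes called. At an unadjusted p under 0.05 Gsk3a alone passed, in rESC-RPC2 against P-RPC and against rESC-RPC1.

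Dvl1, the relay from the receptor, averaged 274 ± 43.8 in rESC-RPC2, 259.8 ± 42.4 in rESC-RPC1 and 361 ± 20.7 in P-RPC (SD, n = 3 each), with log2 changes relative to P-RPC of -0.41 in rESC-RPC2 and -0.49 in rESC-RPC1 (adjusted p = 0.0507 and 0.0268), under the fold threshold. Its probe set is of the kind marked as shared between transcripts. Dvl2 and Dvl3 did not pass the filter.

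The Naked cuticle genes, whose proteins bind Dvl and dampen the signal, were both called lower in rESC-RPC2 than in rESC-RPC1 but had opposite calls in rESC-RPC2 against P-RPC. Nkd1 (gene ID 364952) had signals of 115, 114 and 147 in rESC-RPC2, 192, 434 and 239 in rESC-RPC1 and 491, 408 and 393 in P-RPC. The rESC-RPC1 arrays overlapped with P-RPC through replicate 2, and the rESC-RPC2 arrays lay under both groups and near the threshold. In rESC-RPC2 the log2 change was -1.79 ± 0.27 (SE, adjusted p = 0.000194) against P-RPC and -1.12 ± 0.27 (SE, adjusted p = 0.00552) against rESC-RPC1. Without rESC-RPC1 replicate 2 the difference from rESC-RPC1 was -0.78 and no longer called, and that of rESC-RPC1 from P-RPC just reached the fold threshold.

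Nkd2 (gene ID 308068) had signals of 448, 275 and 279 in rESC-RPC2, 668, 1094 and 586 in rESC-RPC1 and 70.6, 35.3 and 36.2 in P-RPC. All P-RPC arrays lay under the threshold, and no groups overlapped. Nkd2 was higher by at least 2.65-fold in rESC-RPC2 (adjusted p = 2.95e-05) and higher by at least 6.14-fold in rESC-RPC1 (adjusted p = 2.86e-06) than P-RPC. Relative to rESC-RPC1, the log2 change in rESC-RPC2 was -1.21 ± 0.32 (SE, adjusted p = 0.0107), which fell to -0.94 without rESC-RPC1 replicate 2.

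Axin2 (gene ID 29134), the feedback gene whose promoter is shown above with a pair of core matches, had signals of 77.3, 57.7 and 82.9 in rESC-RPC2, 65.3, 123 and 61.3 in rESC-RPC1 and 81.0, 66.5 and 72.6 in P-RPC. It reached the threshold on rESC-RPC1 replicate 2 only, and by a small margin, so it was not tested and no fold is given. Nkd1, Nkd2 and Axin2 all had their highest rESC-RPC1 signal on replicate 2, as did Wnt5b. That array also had the highest sum of 13 astrocyte and radial glia markers of the series, of which 7 were detected in rESC-RPC2, 10 in rESC-RPC1 and 6 in P-RPC (81289, against 62157 and 52570 in rESC-RPC1 replicates 1 and 3, 42906 to 45704 in rESC-RPC2 and 26243 to 31463 in P-RPC), and the part of these cells was not tested.

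Of the 4 transcription factors at the end of the pathway, Lef1 and Tcf7l2 were called lower in rESC-RPC2 than in rESC-RPC1, Tcf7 and Tcf7l2 were called lower in rESC-RPC2 than P-RPC, and Tcf7l1 was called in no comparison by the probe set used. Lef1 (gene ID 161452) had signals of 87.9, 115 and 101 in rESC-RPC2, 276, 304 and 299 in rESC-RPC1 and 201, 195 and 176 in P-RPC. No groups overlapped, with rESC-RPC1 highest and every rESC-RPC2 array under the threshold. Lef1 was lower by at least 2.38-fold in rESC-RPC2 than in rESC-RPC1 (adjusted p = 3.32e-05), a call that held with each array left out. Against P-RPC, Lef1 was lower by at least 1.55-fold in rESC-RPC2. The fitted log2 change there was -0.92 (adjusted p = 0.000499) and was not called. In rESC-RPC1 the log2 change against P-RPC was 0.62, under the fold threshold (adjusted p = 0.00616).

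Tcf7l2 (gene ID 679869), a widely expressed partner of beta-catenin, had signals of 1643, 1354 and 1099.5 in rESC-RPC2, 4098, 3059 and 3602 in rESC-RPC1 and 2823, 2713 and 2679.5 in P-RPC. The groups did not overlap, and the order was that of Lef1. In rESC-RPC2 the log2 change was -1.40 ± 0.14 (SE, adjusted p = 3.38e-05) against rESC-RPC1 and -1.02 ± 0.14 (SE, adjusted p = 0.000133) against P-RPC. The call against P-RPC was lost under median centring (-0.94) and without rESC-RPC2 replicate 3 (-0.88).

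Tcf7 (gene ID 363595), whose promoter is shown above, had signals of 125, 77.1 and 83.7 in rESC-RPC2, 166, 157 and 237 in rESC-RPC1 and 262, 277 and 329 in P-RPC. The order was P-RPC, rESC-RPC1, rESC-RPC2 from high to low, with no overlap, and a single rESC-RPC2 array reached the threshold. Relative to P-RPC, the log2 change was -1.63 ± 0.23 (SE, adjusted p = 0.000144) in rESC-RPC2 and -0.65 ± 0.23 (SE, adjusted p = 0.0321) in rESC-RPC1. Between rESC-RPC2 and rESC-RPC1 it was -0.98 ± 0.23 (SE, adjusted p = 0.00559), and of the 3 only that of rESC-RPC2 against P-RPC reached the fold threshold. Tcf7l1, known mainly as a repressor of target genes, averaged 499.9 ± 34.7 in rESC-RPC2, 541 ± 114 in rESC-RPC1 and 285 ± 28.3 in P-RPC (SD, n = 3 each). It exceeded P-RPC on every array of both rESC-RPC groups, by log2 changes of 0.81 ± 0.16 (SE, adjusted p = 0.00136) in rESC-RPC2 and 0.91 ± 0.16 (SE, adjusted p = 0.00074) in rESC-RPC1, under the fold threshold.

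**Figure D4:**
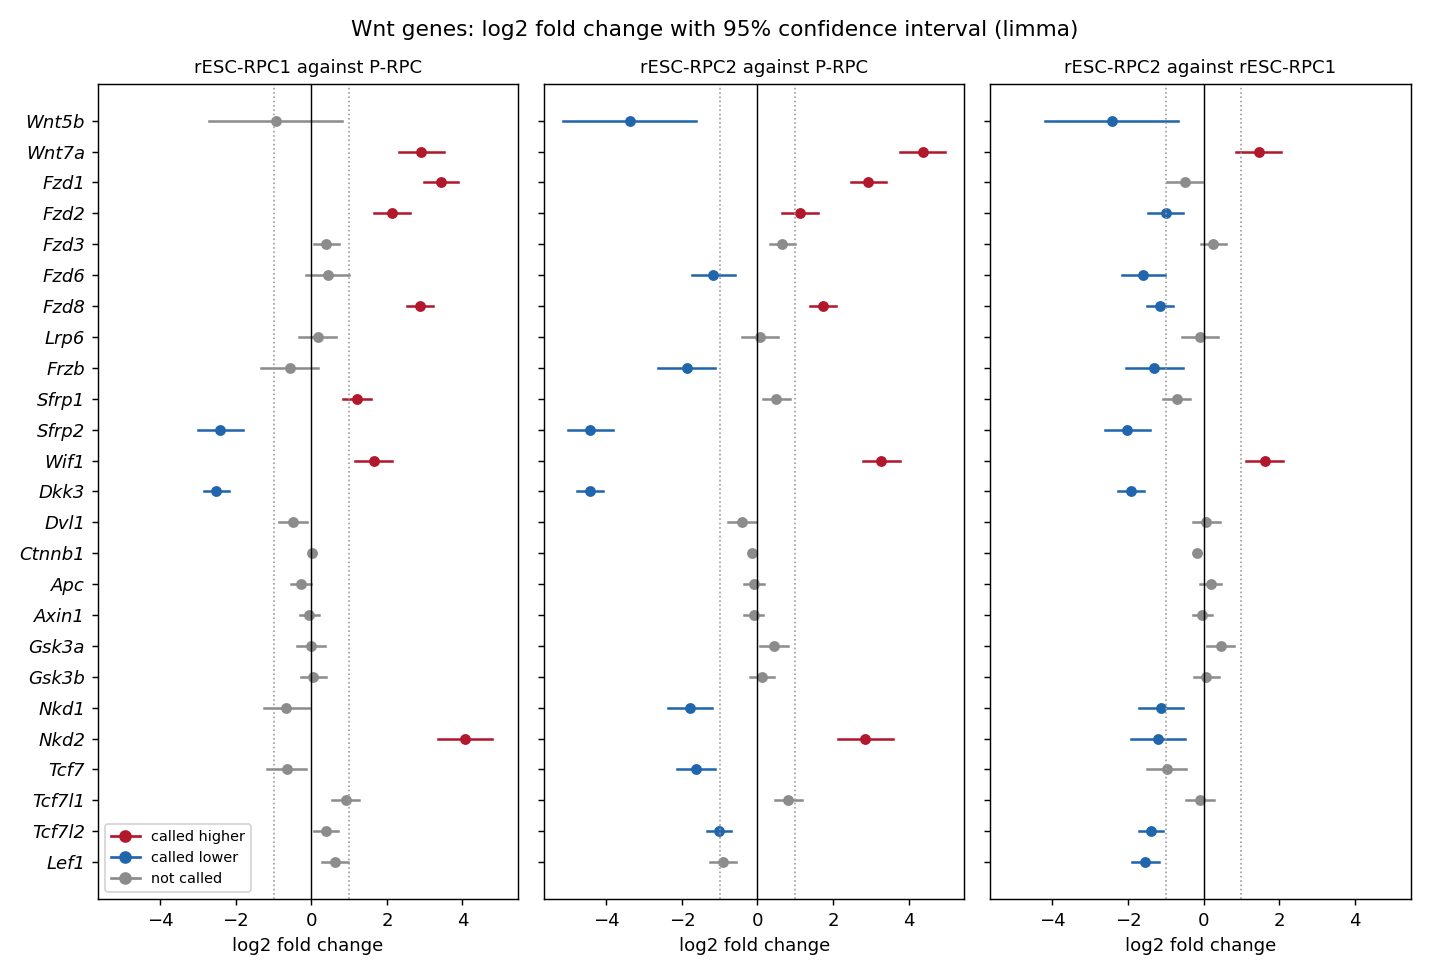
Log2 fold change (horizontal axis) of the 25 Wnt genes in rESC-RPC1 against P-RPC, rESC-RPC2 against P-RPC and rESC-RPC2 against rESC-RPC1, as points with the 95% confidence interval from limma, red for called higher, blue for called lower and grey for not called, with dotted lines at the fold threshold of 2. The points of rESC-RPC2 against rESC-RPC1 lie mostly left of 0, with Wnt7a and Wif1 to the right, and for genes under the detection threshold in a group the points are fitted values and not bounds.

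Where a gene had several probe sets that passed the filter, their calls were compared. There were 9 such genes. The probe sets had the same call for 7 of 9 in rESC-RPC1 against P-RPC, 8 of 9 in rESC-RPC2 against P-RPC and 7 of 9 in rESC-RPC2 against rESC-RPC1. The genes whose probe sets differed were Frzb, Tcf7l1 and Nkd1. The dimmer Tcf7l1 probe set was called higher than in P-RPC in both rESC-RPC2 (log2 change 1.33, adjusted p = 0.000973) and rESC-RPC1 (1.34, adjusted p = 0.000985). The dimmer Frzb probe set was called lower in rESC-RPC1 than P-RPC (-1.26, adjusted p = 0.00108) and not called between rESC-RPC2 and rESC-RPC1 (-0.59, adjusted p = 0.066), and the dimmest of 3 Nkd1 probe sets was not called between them (-1.19, adjusted p = 0.0528). In 0 cases did 2 probe sets of a gene carry calls of opposite direction.

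Pathway genes outside the symbol rule were taken from a list of 51 on the array, of which 45 were tested. In rESC-RPC1 against P-RPC 11 were called higher (24.4%, beside 12.0% of all genes) and 4 lower (8.89%, beside 9.56%), with a median log2 change of 0.19. In rESC-RPC2 against P-RPC the counts were 9 higher (20%, beside 10.8%) and 7 lower (15.6%, beside 13.0%), with a median of 0.20. Set against rESC-RPC1, rESC-RPC2 had 2 higher (4.44%, beside 5.09%) and 6 lower (13.3%, beside 9.25%), with a median of 0.05. The shares called lower than in P-RPC, and both shares between rESC-RPC2 and rESC-RPC1, were near those of all genes. The last of these medians stood beside -0.72 for the genes chosen by symbol and -0.03 for all genes.

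The called genes of this list with the smallest adjusted p were Wls, Prickle1, Ndp, Tspan12, Gpc3 and Btrc. Wls, which carries Wnt ligands to the cell surface, averaged 1158 ± 57.6 in rESC-RPC2, 881 ± 108 in rESC-RPC1 and 138 ± 20.8 in P-RPC (SD, n = 3 each). Its log2 change against P-RPC was 3.08 ± 0.14 (SE, adjusted p = 5.72e-08) in rESC-RPC2 and 2.68 ± 0.14 (SE, adjusted p = 1.35e-07) in rESC-RPC1. Prickle1, a planar polarity protein, averaged 1147 ± 93.7 in rESC-RPC2, 1083 ± 128 in rESC-RPC1 and 150.1 ± 19.1 in P-RPC (SD, n = 3 each), with log2 changes against P-RPC of 2.94 ± 0.13 (SE, adjusted p = 5.52e-08) in rESC-RPC2 and 2.85 ± 0.13 (SE, adjusted p = 6.67e-08) in rESC-RPC1. The rESC-RPC2 and rESC-RPC1 means of Prickle1 differed by less than their spread.

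Ndp encodes norrin, a ligand of Fzd4 that is not a Wnt and is needed for retinal vessels, and Tspan12 is the partner of Fzd4 in that response. Ndp averaged 63.6 ± 14.6 in rESC-RPC2, 399.6 ± 63.1 in rESC-RPC1 and 651 ± 30.8 in P-RPC (SD, n = 3 each), under the threshold on all rESC-RPC2 arrays. It was lower by at least 5.29-fold in rESC-RPC2 than P-RPC (adjusted p = 2.01e-07) and lower by at least 3.22-fold than in rESC-RPC1 (adjusted p = 3.49e-06). Tspan12 averaged 1866 ± 157 in rESC-RPC2, 3665 ± 456 in rESC-RPC1 and 729 ± 83.9 in P-RPC (SD, n = 3 each) and was higher in rESC-RPC1 than P-RPC, with a log2 change of 2.33 ± 0.12 (SE, adjusted p = 1.51e-07). Gpc3, a glypican of the cell surface, averaged 1543 ± 353 in rESC-RPC2, 6065 ± 1793 in rESC-RPC1 and 517 ± 12.5 in P-RPC (SD, n = 3 each), and Btrc, the subunit of the ligase that marks phosphorylated beta-catenin, averaged 1128 ± 109.8 in rESC-RPC2, 563 ± 70.5 in rESC-RPC1 and 649 ± 27.9 in P-RPC (SD, n = 3 each). Relative to rESC-RPC1, the log2 change in rESC-RPC2 was -1.95 ± 0.21 (SE, adjusted p = 4.66e-05) for Gpc3 and 1.01 ± 0.12 (SE, adjusted p = 6.95e-05) for Btrc.

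Tnks2, a tankyrase of the kind that destabilises Axin, averaged 3285 ± 137 in rESC-RPC2, 3397 ± 199 in rESC-RPC1 and 3075 ± 89.8 in P-RPC (SD, n = 3 each) and was not called, with adjusted p relative to P-RPC of 0.256 in rESC-RPC2 and 0.102 in rESC-RPC1. A list of genes known as beta-catenin targets outside the symbol rule held 24 genes, of which 12 were tested. It shares 3 genes (Lgr5, Znrf3 and Dact1) with the pathway list, so that Znrf3 and Dact1, the 2 of these that were tested, count in both. In rESC-RPC1 against P-RPC 3 of the 12 were called higher (Myc, Msx1 and Dact1) and 2 lower (Ccnd1 and Bmp4), 41.7% beside 21.5% of all genes. In rESC-RPC2 against P-RPC 3 were called higher (Myc, Id2 and Dact1) and 2 lower (Ccnd1 and Cdx2), 41.7% beside 23.8%. Of these, Cdx2 was dim in P-RPC (126, 169 and 130) and under the threshold on all rESC-RPC2 arrays. It was lower by at least 1.15-fold only. For rESC-RPC2 against rESC-RPC1, 2 were higher (Bmp4 and Nrcam) and 2 lower (Msx1 and Cd44), 33.3% beside 14.3%. The Bmp4 calls rest on rESC-RPC1 signals of 115, 82.5 and 322, of which only replicate 3 exceeded the threshold. These overlapped with P-RPC (291, 323 and 409, limma adjusted p = 0.0293) and with rESC-RPC2 (436, 239 and 320, adjusted p = 0.0457).

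The targets called against P-RPC thus ran in both directions, as 3 of them show. Myc, a growth factor-responsive transcription factor, had signals of 603, 517 and 493 in rESC-RPC2, 535, 270.1 and 447 in rESC-RPC1 and 180.2, 142 and 159 in P-RPC, with log2 changes against P-RPC of 1.74 ± 0.22 (SE, adjusted p = 7.3e-05) in rESC-RPC2 and 1.33 ± 0.22 (SE, adjusted p = 0.000518) in rESC-RPC1. Dact1, a partner of Dvl, was under the threshold on all P-RPC arrays and was higher by at least 5.12-fold in rESC-RPC2 (adjusted p = 1.27e-06) and by at least 3.05-fold in rESC-RPC1 (adjusted p = 1.17e-05) than P-RPC. Ccnd1, the G1 cyclin, is also among the retinal progenitor markers, and it averaged 2448 ± 171 in rESC-RPC2, 2467 ± 513 in rESC-RPC1 and 17368 ± 849 in P-RPC (SD, n = 3 each), with log2 changes against P-RPC of -2.83 ± 0.13 (SE, adjusted p = 7.9e-08) in rESC-RPC2 and -2.84 ± 0.13 (SE, adjusted p = 8.11e-08) in rESC-RPC1.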

How the data were processed

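RNA of 9 samples, 3 each of rESC-RPC2, rESC-RPC1 and P-RPC, was hybridized to Affymetrix rat arrays. The deposited intensities are linear MAS 5.0 signals, 1 per probe set, computed by the authors (MAS5 version not given in the sources used here), and all arrays had been scaled to 1 trimmed mean. Signals under 1 were set to 1 and taken to log2, with no further scaling. After 57 controls were left out, 20826 of 31042 probe sets carried 1 gene symbol, 436 several and 9780 none, and only those with 1 symbol were used. The number of arrays limits the precision, and errors of signals are SDs over 3 arrays.

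limma 3.58.1 in R 4.3.3 (lmFit, eBayes with a variance trend) was fitted with 1 mean per group over 9 arrays to all 9948 genes that passed the filter, and adjusted p-values are over all of them. The fit was tested on simulated data. The alternatives were median centring, quantile normalization, a stricter filter or none, other floors, other probe set choices, no variance trend, the methods' t-test, a fold of at least 4, the replicate number as a block, and each array left out. A gene was named where a group mean reached the threshold. Values per array are given for up to 8 called genes per comparison by size of change whose arrays do not overlap, and for a fixed set of pathway genes. From the list of other pathway genes, the 3 called genes of smallest adjusted p per comparison were named. Wnt genes under the threshold are named without values, except Axin2 and those under the other observations, which were chosen after their values were seen. So were Tnks2, Pax6, Sox2, Nes, Dct, Mitf, Col1a2, Tagln and the beta-catenin targets given values (Myc, Dact1, Ccnd1, Cdx2 and Bmp4). The members, gene lists and tests were chosen with earlier results of these data known.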

Additional observations from a re-analysis of the deposited data

Results flagged for a closer look

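For 3 genes, the log2 change against P-RPC was below 0 in rESC-RPC2 and above 0 in rESC-RPC1, and the difference between rESC-RPC2 and rESC-RPC1 itself was called by limma. This difference in log2 was -1.60 for Fzd6, -1.54 for Lef1 and -1.40 for Tcf7l2. Against P-RPC the log2 fold change of Fzd6 was -1.16 in rESC-RPC2 and 0.44 in rESC-RPC1, that of Lef1 was -0.92 in rESC-RPC2 and 0.62 in rESC-RPC1, and that of Tcf7l2 was -1.02 in rESC-RPC2 and 0.38 in rESC-RPC1. Both sets of values share the P-RPC arrays. The values for Fzd6 and Lef1 in rESC-RPC2 are fitted from signals under the detection threshold.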

How the results depend on the processing

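The counts of Wnt genes called were 9 in rESC-RPC1 against P-RPC, 14 in rESC-RPC2 against P-RPC and 13 in rESC-RPC2 against rESC-RPC1. With each array left out in turn they ranged from 9 to 11, 13 to 15 and 11 to 14. With no filter on dim probe sets the first count was 14, since genes under the threshold then entered the test. The second was then 10 higher and 9 lower, and the third 2 higher and 12 lower. With the stricter filter the second was 6 higher and 4 lower, and the third 2 higher and 7 lower. With a fold of at least 4 the second count was 7 and the third 2, and by the methods' t-test after Benjamini-Hochberg adjustment, which uses only 6 arrays, the third was 8. Values of single genes were followed where a comparison was called in the main fit or under any alternative. Of these values, 858 were called or not called as in the main fit, 46 lost a call, 9 gained one and 0 changed direction. The 858 include values that were not called in either fit. Genes left out by the stricter filter are not among these values, so the calls lost through it are not counted. With the replicate number as a block the counts were 9, 14 and 13. Whether the numbers mark shared batches is not known. Arrays with the same number in different groups correlated from -0.04 to 0.27 in their deviations from the group means, and 1 of 9 such pairs exceeded 0.1. Pairs from different groups with different numbers ranged from -0.31 to 0.31. With 3 arrays in a group, these correlations cannot exclude a shared batch. Signals near the threshold limit what can be said of Wnt5b, Fzd6, Axin2 and the ligands that were not tested.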

Other observations

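Some Wnt genes that did not pass the filter had arrays near the threshold of 123. Wnt8b, a ligand of the developing forebrain, had signals of 4.46, 13.9 and 6.07 in rESC-RPC2, 87.7, 178 and 70.6 in rESC-RPC1 and 13.0, 26.3 and 23.5 in P-RPC, so that every rESC-RPC1 array exceeded all others and replicate 2 alone reached the threshold. Wnt5a had signals of 71.4, 128 and 64.6 in rESC-RPC2, 73.8, 105.5 and 55.1 in rESC-RPC1 and 22.2, 26.4 and 32.2 in P-RPC. Sfrp4 had signals of 109, 145 and 68.0 in rESC-RPC2, 83.7, 94.3 and 89.2 in rESC-RPC1 and 10.5, 45.7 and 7.94 in P-RPC. Without the filter, the calls were higher in rESC-RPC1 against P-RPC for Wnt8b, and higher in both rESC-RPC groups against P-RPC for Wnt5a and Sfrp4. Wnt8b was then also called lower in rESC-RPC2 than in rESC-RPC1. Not all such genes were called: Wnt1, Wnt2b, Fzd4 and Axin2 each had an array at the threshold and were called in no comparison. Lrp5, under the threshold on every array, was called lower in rESC-RPC2 than P-RPC. These genes were picked after their values were seen, and their signals are too low to give folds.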
